A study of Rattus norvegicus with 8 samples.

Results

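A set of 10 genes of microglia, complement and antigen presentation was followed across 8 hippocampal transcriptomes of aged rats. The set holds Aif1, Itgam and Tyrobp as microglial genes, C1qa, C1qb and C3 of the complement system, Cd74, RT1-Da and RT1-Ba of the class II major histocompatibility complex (MHC), and B2m of MHC class I. The members were picked by Ensembl ID from the 26405 gene IDs of the deposited count table, by a rule that reads no measured value. The deposited tables give IDs only, so the symbols are those of the list that defines the set. All 10 were abundant enough to be tested, with between 101 and 11359 reads per gene and library.

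RNA was taken from the right hippocampus of female Sprague-Dawley rats aged 28 months given an adenoviral vector by injection into the brain ventricles. In the IGF1 group (4 rats) the vector expressed rat IGF-I, a trophic peptide hormone, and in the DsRed group (4 rats) it was the empty vector named for the red fluorescent protein DsRed. Both groups were therefore old and had both been given an adenovirus, and no untreated or young rats entered the comparison. The promoter of the vector, the cells it entered and the time from injection to dissection are not stated in the labels used here.

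Microglia are the resident macrophages of the brain. Aif1 encodes the actin-binding protein IBA1, by which they are usually stained, Itgam the integrin subunit CD11b, and Tyrobp the adaptor DAP12 that carries signals from TREM2 and related receptors. C1q starts the classical complement pathway and C3 is the component on which all complement pathways converge. In the brain C1q is made largely by microglia, and C3 by microglia and reactive astrocytes. MHC class II molecules present peptides to CD4+ T cells. They are heterodimers whose alpha chains include the products of RT1-Da and RT1-Ba, and CD74, the invariant chain, guides them to the endosome. Their genes are switched on together by the coactivator CIITA, which docks on factors bound to the X and Y boxes of their promoters. B2m encodes beta-2-microglobulin, the light chain of MHC class I, which nearly every cell makes.

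Promoter sequences are shown for the class II genes because their levels moved together across the libraries, and for B2m as the class I gene. RefSeq (build GRCr8) gave a 300-base window for 8 of the 10 members, all but Aif1 and Tyrobp. The 90 bases from position -100 to -11, counted from the gene start of that table, are printed 5′ to 3′. Capitals mark GCAAC, a core of the X box, and ATTGG, the Y box core (CCAAT on the other strand). The windows are Cd74 at chr18:56527106-56527195, RT1-Da at chr20:4515315-4515404, RT1-Ba at chr20:4576957-4577046 and B2m at chr3:129549230-129549319, each on the plus strand.
Cd74: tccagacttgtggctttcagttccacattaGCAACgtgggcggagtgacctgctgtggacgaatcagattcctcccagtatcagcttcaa
RT1-Da: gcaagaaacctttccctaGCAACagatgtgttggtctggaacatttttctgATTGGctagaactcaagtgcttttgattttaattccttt
RT1-Ba: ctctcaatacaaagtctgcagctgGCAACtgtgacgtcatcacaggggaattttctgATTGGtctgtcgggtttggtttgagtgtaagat
B2m: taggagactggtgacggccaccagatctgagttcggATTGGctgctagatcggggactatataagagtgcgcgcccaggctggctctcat

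In RT1-Da GCAAC began at -82 and ATTGG at -49, and in RT1-Ba they began at -76 and -43, which is the same distance of 33 bases in both. The longest run of letters the 2 windows of 300 bases share is TTTTCTGATTGG, which ends in the Y box core. A distance of 33 bases between these motifs, on the gene's strand, was found in 10 of 33469 promoter windows of the same length (0.0299%). Of those 10, 4 belong to class II alpha chain genes: RT1-Da, RT1-Ba, RT1-DOa and RT1-Ha. The distance was taken from the RT1-Da and RT1-Ba sequences themselves, so these counts describe the promoters and test nothing. Cd74 had GCAAC at -70 and CCAAT upstream of the printed stretch, at -189. B2m had ATTGG at -64 and, at -150, a match to the core of the interferon-stimulated response element.

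Searched on both strands, single motifs were common in promoters as a whole. GCAAC was found in 35.1% of the 33469 windows and in 6 of the 8 members, and ATTGG in 37.5% and in 4 of the 8. GAGGAA, a core of sites for the myeloid factor PU.1, was found in 27.6% of windows and in Itgam, C1qb and Cd74. TTCNNNGAA, the core of gamma-activated sites, was found in 8.87% and in Itgam and C1qa, and the response element core in 3.92% and in B2m alone of the 8. No motif was masked where it overlapped another. A match says only that the letters are present, and factor binding was not measured.

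Reads assigned to genes ranged from 16347636 to 27377086 per library. DsRed replicate 1 and IGF1 replicate 1 stood apart from the rest on principal components of log2 CPM (CPM, counts per 1000000 reads of the TMM-scaled library). DsRed replicate 1 scored 31.5 on the second component, where the other libraries lay between -16.9 and 6.87. IGF1 replicate 1 scored -42.0 on the first, where the next lowest library scored -2.89. Results are therefore also given without these libraries. Markers of T cells, other blood cells, meninges, choroid plexus and hippocampal neurons were not analysed here, because the table pairs no IDs with symbols. The same holds for the transcript of Igf1 and for other genes of these pathways.

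None of the 10 genes differed between the IGF1 and DsRed groups beyond the spread between rats. By the quasi-likelihood test of edgeR, adjusted over 14522 IDs by the Benjamini-Hochberg method, 0 of 10 had an adjusted p under 0.05, and 0.00% of all IDs did. The adjusted p of the members ranged from 0.743 to 0.998. At an unadjusted threshold of 0.05 that test listed 0 of the 10, against 6.60% of all IDs, and DESeq2, the edgeR likelihood ratio test and limma voom also listed 0. Other settings listed 1 or 2 at that unadjusted threshold: C1qb with the replicate number as a block (p 0.0281), without IGF1 replicate 1 (p 0.00707) and without DsRed replicate 2 (p 0.0497), C3 without DsRed replicate 1 (p 0.0342), and C1qa and C1qb without both libraries numbered 1. None of these passed after adjustment by edgeR, where the smallest adjusted p was between 0.738 and 0.913. In none of the 10 did the groups separate without overlap, against 4.71% of all IDs. Exact two-sided permutation tests of the 10 CPM differences, unadjusted, gave p between 0.143 and 1, where 4 libraries against 4 can reach 0.0286.

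Fitted levels were lower in the IGF1 group for 7 of the 10 genes, against 48.9% of all IDs, and for 8 of the 10 when libraries were scaled by total counts only. The median log2 fold change was -0.21 over the members and 0.0027 over all IDs. A fall of more than 1.2-fold was fitted for 5 members (C1qb, C3, Cd74, RT1-Da and RT1-Ba), against 5.69% of all IDs, and none of the 5 passed the test. The 10 genes share cells and libraries, so they are not 10 separate observations. Single libraries set the direction: without DsRed replicate 1 all 10 were fitted lower in the IGF1 group, and without DsRed replicate 4 only 1 of 10 was. In neither case did any member pass the adjusted threshold, and the smallest adjusted p was 0.826 and 0.866.

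**Figure D1:**
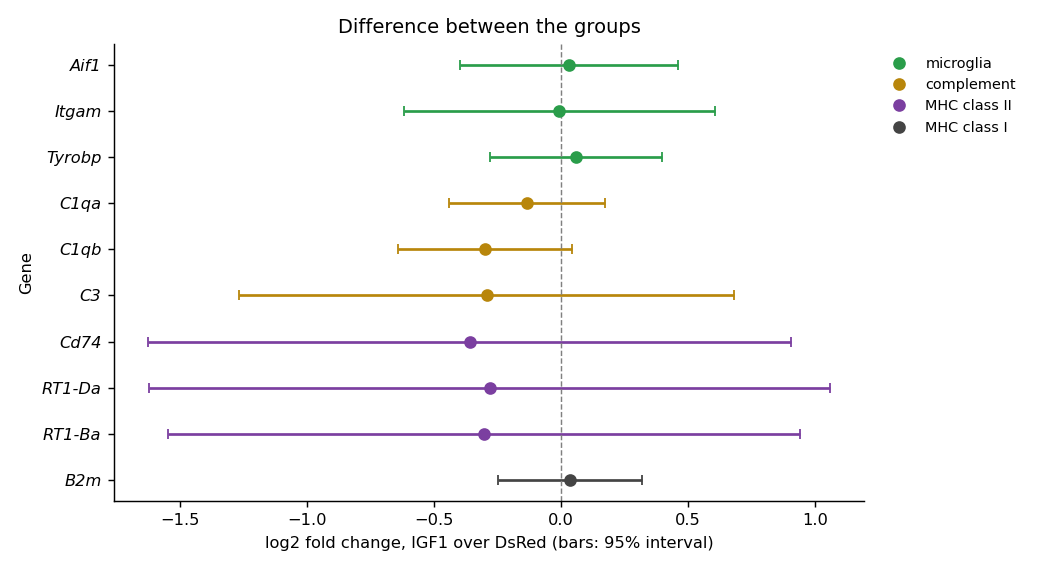
Log2 fold change of each gene (horizontal axis, IGF1 over DsRed, 4 libraries a group) with its 95% interval from the edgeR fit, coloured by the gene's role. Every interval crosses 0, and those of Cd74, RT1-Da and RT1-Ba are the widest, spanning about -1.62 to 1.06 for RT1-Da.

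The microglial genes had nearly equal means in both groups. Aif1 (ENSRNOG00000000853) stood at 11.2, 20.6, 21.9 and 23.3 CPM in DsRed libraries 1 to 4, numbered by replicate, and at 21.1, 18.5, 22.0 and 17.3 CPM in IGF1 libraries 1 to 4. The IGF1 values all fell inside the DsRed range, because DsRed replicate 1 lay far below every other library and DsRed replicate 4 above them. Its group means were 19.7 ± 2.19 CPM in IGF1 and 19.3 ± 5.50 CPM in DsRed (SD, n = 4 each), which gave a log2 fold change of 0.03 (SE 0.19, edgeR adjusted p 0.980). The fitted sign was not stable, since scaling by total counts only gave -0.0015.

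Itgam (ENSRNOG00000019728) had 6.27, 16.4, 15.8 and 20.8 CPM in DsRed libraries 1 to 4, and 15.5, 12.4, 15.4 and 16.1 CPM in IGF1 libraries 1 to 4. The DsRed group again held both the lowest and the highest library. The log2 fold change was -0.0059 (SE 0.27, edgeR adjusted p 0.998). Tyrobp (ENSRNOG00000020845) was the steadiest of the 3 microglial genes, at 13.6, 13.6, 15.8 and 14.5 CPM in the IGF1 libraries and 9.38, 14.98, 13.7 and 16.8 CPM in the DsRed libraries. Its log2 fold change was 0.06 (SE 0.15, edgeR adjusted p 0.945). The 95% intervals allow a change between 0.758-fold and 1.37-fold for Aif1, 0.652-fold and 1.52-fold for Itgam, and 0.825-fold and 1.32-fold for Tyrobp. In whole tissue such as this, fewer microglia and less RNA per microglial cell cannot be told apart.

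**Figure D2:**
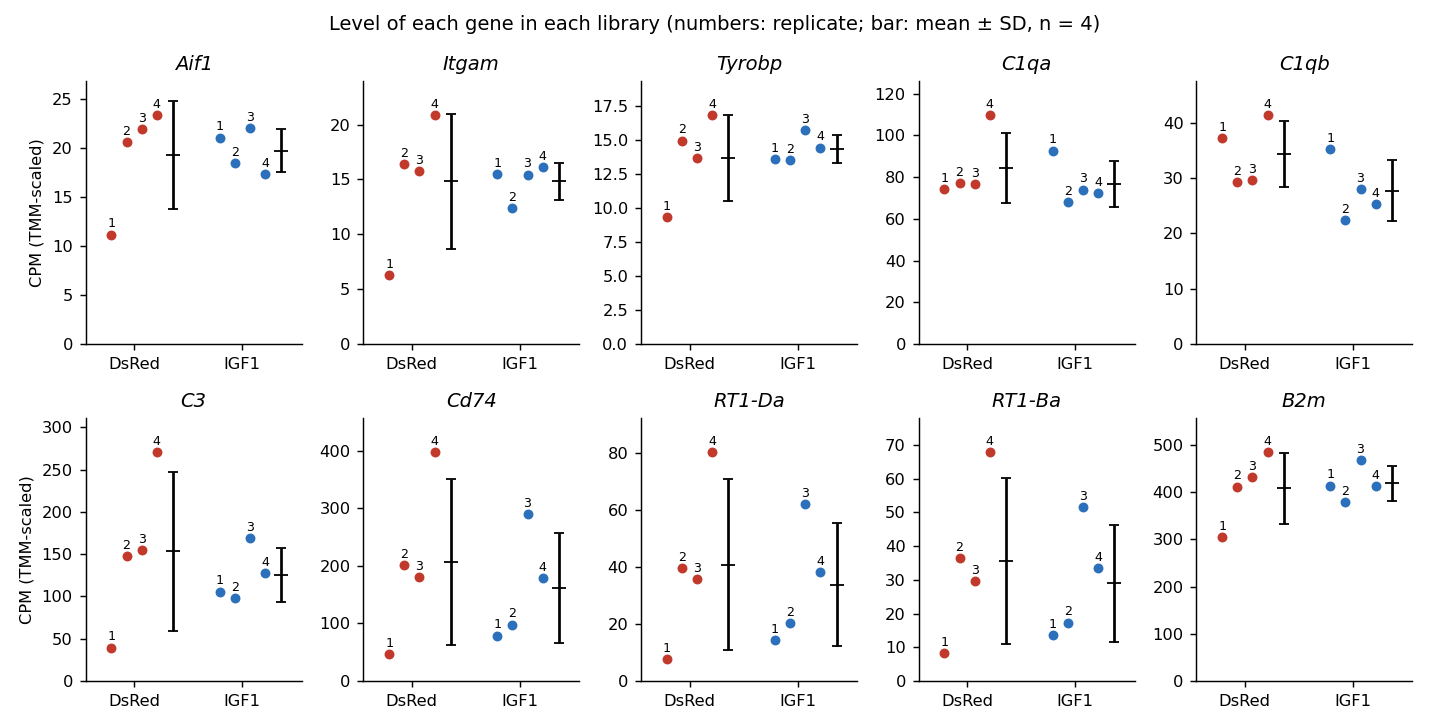
CPM of each gene (vertical axis, from 0) in the 4 DsRed and 4 IGF1 libraries, with the replicate number above each point and the group mean ± SD beside the points. DsRed replicate 4 is the highest library for all 10 genes and DsRed replicate 1 the lowest for 8, and the DsRed range encloses every IGF1 value except for C1qa and C1qb, where 3 IGF1 libraries lie below it.

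C1qa and C1qb, which encode chains of the same C1q molecule and lie close together in the genome, differed in pattern from the microglial genes in DsRed replicate 1. C1qa (ENSRNOG00000012807) stood at 74.2, 77.1, 76.8 and 109.6 CPM in DsRed libraries 1 to 4, and at 92.7, 68.1, 74.1 and 72.3 CPM in IGF1 libraries 1 to 4. DsRed replicate 1, low for Aif1, Itgam and Tyrobp, was level with the next 2 DsRed libraries here, and 3 of the 4 IGF1 libraries lay just below it. C1qb (ENSRNOG00000012804) had 35.2, 22.3, 28.0 and 25.3 CPM in the IGF1 libraries, and 37.2, 29.2, 29.6 and 41.3 CPM in the DsRed libraries. In that gene DsRed replicate 1 was the second highest of all 8 libraries.

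C1qb came nearest to a difference between the groups. Its means were 27.7 ± 5.50 CPM in IGF1 and 34.3 ± 5.92 CPM in DsRed (SD, n = 4 each), with 3 of the 4 IGF1 libraries below every DsRed library. The log2 fold change was -0.30 (SE 0.15), with p 0.0807 before and 0.743 after adjustment by edgeR and an exact permutation p of 0.143. The IGF1 library above the others was IGF1 replicate 1. Without it the log2 fold change was -0.44 and the unadjusted p 0.00707, with an edgeR adjusted p of 0.744. Leaving out DsRed replicate 4, the highest library, gave -0.20 (unadjusted edgeR p 0.227). Leaving out IGF1 replicate 2, the lowest, gave -0.21 (unadjusted edgeR p 0.206). C1qa had a log2 fold change of -0.13 (SE 0.14, edgeR adjusted p 0.826), and without DsRed replicate 4 its fitted value was 0.02.

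C3, the central complement component, varied more between rats than C1q did. Its ID, ENSRNOG00000046834, stood at 39.4, 148.0, 154.4 and 270.6 CPM in DsRed libraries 1 to 4, and at 105.6, 98.1, 169.2 and 127.6 CPM in IGF1 libraries 1 to 4. The lowest and the highest DsRed library differed 6.87-fold, and the IGF1 libraries lay between them within a 1.72-fold range. The means of 125.1 ± 31.9 CPM in IGF1 and 153.1 ± 94.5 CPM in DsRed (SD, n = 4 each) gave a log2 fold change of -0.29 (SE 0.44, edgeR adjusted p 0.888). This value was -0.61 without DsRed replicate 1 and 0.13 without DsRed replicate 4.

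The MHC class II genes had the widest spread of the set, and it lay within the groups. Cd74 (ENSRNOG00000018735) had 47.0, 200.9, 180.4 and 397.7 CPM in DsRed libraries 1 to 4, and 78.7, 97.8, 289.3 and 178.9 CPM in IGF1 libraries 1 to 4. RT1-Da (ENSRNOG00000032844) had 7.70, 39.7, 35.7 and 80.4 CPM in the DsRed libraries, and 14.4, 20.3, 62.3 and 38.4 CPM in the IGF1 libraries. RT1-Ba (ENSRNOG00000000451) had 8.32, 36.4, 29.6 and 67.9 CPM in the DsRed libraries, and 13.6, 17.3, 51.6 and 33.5 CPM in the IGF1 libraries. In all 3 genes DsRed replicate 4 was highest and IGF1 replicate 3 next, and DsRed replicate 1 was lowest, followed by IGF1 replicates 1 and 2.

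Between the groups the class II means differed by less than 1 SD of either group. Cd74 averaged 161.2 ± 95.8 CPM in IGF1 and 206.5 ± 144.6 CPM in DsRed (SD, n = 4 each). The fitted log2 fold change was -0.36 (SE 0.57, edgeR adjusted p 0.898). For RT1-Da and RT1-Ba the log2 fold changes were -0.28 and -0.30, with SE of 0.60 and 0.56 and edgeR adjusted p of 0.933 and 0.917. Without DsRed replicate 4 they were 0.26 and 0.20, and that of Cd74 was 0.17; without DsRed replicate 1 they were -0.62, -0.62 and -0.69 in the order RT1-Da, RT1-Ba and Cd74. Without IGF1 replicate 1 they were -0.019, -0.058 and -0.13 in the same order, and without IGF1 replicate 3 they were -0.77, -0.75 and -0.81. None passed the adjusted threshold in any of these cases. With 4 rats a group, the 95% intervals allow a change between 0.324-fold and 1.87-fold for Cd74, and between 0.325-fold and 2.09-fold for RT1-Da.

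B2m, by contrast, was narrow in range. Its ID, ENSRNOG00000017123, stood at 304.7, 412.1, 431.9 and 485.4 CPM in DsRed libraries 1 to 4, and at 414.4, 379.2, 468.7 and 413.7 CPM in IGF1 libraries 1 to 4. DsRed replicate 1 was again lowest and DsRed replicate 4 highest. The log2 fold change was 0.04 (SE 0.13, edgeR adjusted p 0.959), and the 95% interval of 0.843-fold to 1.248-fold was the narrowest of the 10.

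**Figure D3:**
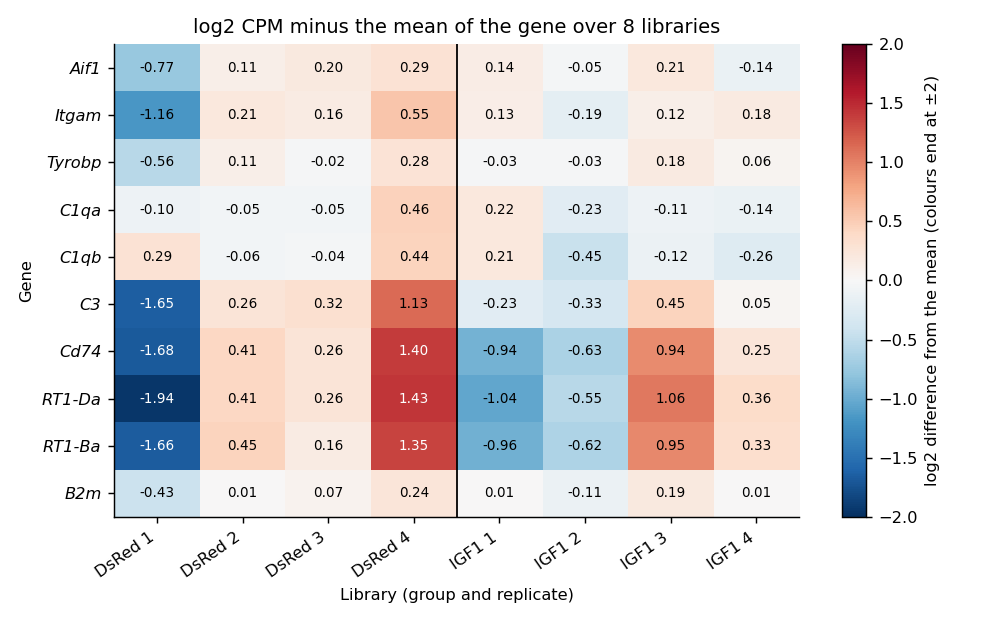
Log2 CPM of each gene (rows) in each library (columns) minus the gene's mean over the 8 libraries, with red above and blue below that mean and a line between the groups. The class II genes and C3 swing from -1.65 or lower in DsRed replicate 1 to 1.13 or higher in DsRed replicate 4, whereas B2m stays between -0.43 and 0.24.

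The class II genes and C3 were among the transcripts with the widest range over these hippocampi. Over the 9442 IDs with a mean of at least 10 CPM, the highest library exceeded the lowest by a median of 1.246-fold. Cd74 spanned 8.47-fold, RT1-Da 10.4-fold, RT1-Ba 8.16-fold and C3 6.87-fold. Only 16, 10, 17 and 23 of the 9442 IDs spanned more than these genes, in the same order. The microglial genes spanned 2.09-fold (Aif1), 3.32-fold (Itgam) and 1.796-fold (Tyrobp), exceeded by 3.13%, 0.752% and 6.20% of the IDs. C1qa at 1.61-fold, C1qb at 1.85-fold and B2m at 1.59-fold were exceeded by 10.5%, 5.49% and 10.97%.

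This spread was present in both groups for class II. The coefficient of variation of Cd74 was 59.5% among IGF1 libraries and 70.03% among DsRed libraries, where the medians over the 9442 IDs were 7.74% and 5.31%. RT1-Da and RT1-Ba had 63.6% and 59.9% in IGF1 and 73.3% and 69.3% in DsRed. For C3 it was 25.5% in IGF1 and 61.7% in DsRed, and for Itgam 11.3% and 41.3%. For those 2 genes much of the range came with DsRed replicate 1, and without that library the range over the remaining 7 fell from 6.87-fold to 2.76-fold for C3 and from 3.32-fold to 1.68-fold for Itgam. Cd74 still spanned 5.06-fold without DsRed replicate 1 and 4.07-fold without both libraries numbered 1. These ranges keep the scaling of all 8 libraries. Among those last 6 libraries 14 of the 9442 IDs spanned more than Cd74.

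**Figure D4:**
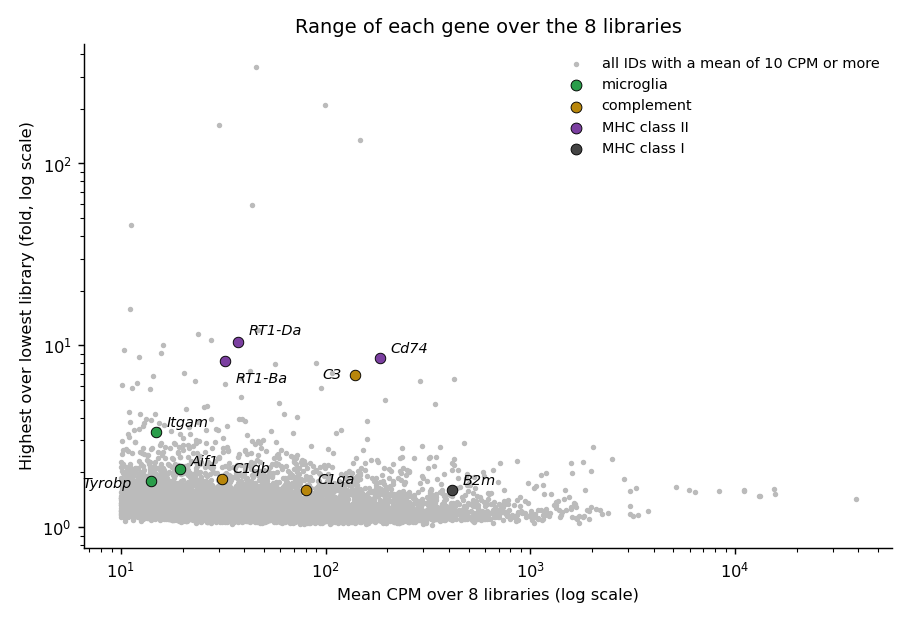
Highest over lowest library (vertical axis, fold, log scale) against mean CPM (horizontal axis, log scale) for the 9442 IDs with a mean of at least 10 CPM in grey, and for the 10 genes in colour by role. RT1-Da, Cd74, RT1-Ba and C3, at 6.87-fold to 10.4-fold, lie above nearly all other IDs, and the remaining members lie at 1.59-fold to 3.32-fold.

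Ratios of read counts within a library, which need no scaling, separated genes that moved as a unit from genes that did not. RT1-Ba reads per Cd74 read stayed between 0.164 and 0.187 in all 8 libraries, a 1.14-fold range, while Cd74 itself spanned 8.47-fold. RT1-Da reads per Cd74 read ranged from 0.164 to 0.215, or 1.31-fold, with the lowest value in DsRed replicate 1. RT1 genes have close paralogs and differ between rat haplotypes, and how multiply aligned reads were counted is not stated. The part of allele differences in the RT1-Da and RT1-Ba counts was not tested.

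Class II expression was not in a fixed proportion to the microglial genes. Cd74 reads per Aif1 read were 4.20, 9.76, 8.23 and 17.1 in DsRed libraries 1 to 4, and 3.74, 5.29, 13.1 and 10.3 in IGF1 libraries 1 to 4. The highest ratio was 4.56 times the lowest, and per Tyrobp read the range was 4.72-fold. C3 reads per Aif1 read ranged 3.30-fold, from 3.52 in DsRed replicate 1 to 11.6 in DsRed replicate 4. Tyrobp reads per Aif1 read ranged only 1.34-fold and Itgam reads per Aif1 read 1.66-fold. B2m reads per Aif1 read ranged 1.38-fold, so a narrow ratio to Aif1 was not particular to the microglial genes.

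In both groups the ratio of Cd74 to Aif1 covered much the same range. Its means were 8.13 ± 4.37 in IGF1 and 9.81 ± 5.37 in DsRed (SD, n = 4 each, exact permutation p = 0.657). The ratio of C1qa to C1qb lay between 2.59 and 3.05 in 7 libraries and at 1.99 in DsRed replicate 1. C1qb reads per Aif1 read lay between 1.21 and 1.77 in the same 7 libraries and at 3.33 in DsRed replicate 1. That library therefore combined the lowest class II, C3 and microglial levels with a C1qb level near the top.

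**Figure D5:**
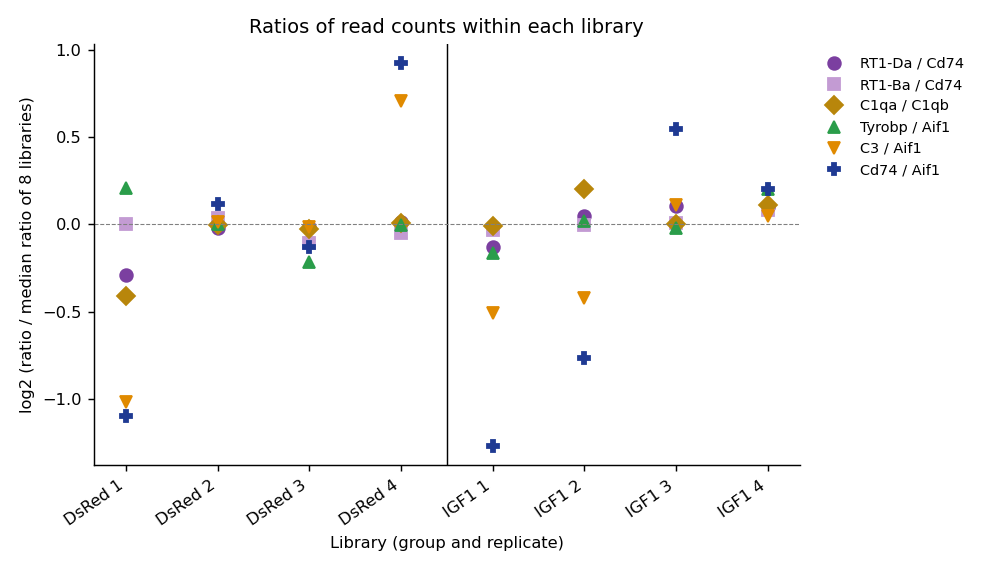
Ratios of read counts of gene pairs in each library (vertical axis, log2 of the ratio over its median of 8 libraries), DsRed on the left and IGF1 on the right of the line. RT1-Ba over Cd74 stays near 0 in every library, whereas Cd74 over Aif1 runs over a 4.56-fold range with low and high libraries in both groups, and C1qa over C1qb departs most in DsRed replicate 1.

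Correlations of log2 CPM over the 8 libraries, given as a description because the points share scaling and library quality, were highest within class II. Pearson's r was 0.998 for Cd74 with RT1-Ba, 0.997 for Cd74 with RT1-Da and 0.997 for RT1-Da with RT1-Ba. C3 followed class II closely, with r of 0.943 with Cd74, and 0.952 without both libraries numbered 1. It also followed the microglial genes, with r of 0.962 with Tyrobp, 0.954 with Itgam and 0.916 with Aif1. Without both libraries numbered 1 these were 0.863, 0.928 and 0.820. B2m had r of 0.970 with C3 and 0.9002 with Cd74, although its own range was small. Of the microglial genes Tyrobp came closest to class II, with r of 0.896 with Cd74, 0.905 without DsRed replicate 1 and 0.924 without both libraries numbered 1. For Itgam with Cd74 these values were 0.830, 0.734 and 0.891, and for Aif1 with Cd74 they were 0.764, 0.504 and 0.737.

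C1qb stood apart from the members other than C1qa, and the difference depended on the libraries numbered 1. C1qa lay between, with r of 0.439 with Aif1 and 0.366 with Cd74. The microglial genes depended on DsRed replicate 1 too: Aif1 with Itgam had r of 0.932, and 0.582 without that library. For Aif1 with Tyrobp these values were 0.911 and 0.512, and for Itgam with Tyrobp 0.958 and 0.762. Without DsRed replicate 1, C1qb had r of 0.773 with Aif1, 0.838 with Itgam and 0.520 with Tyrobp. C1qa and C1qb had r of 0.802 with each other and 0.969 without DsRed replicate 1. C1qb with Cd74 had r of -0.0024 over 8 libraries, 0.383 without DsRed replicate 1 and 0.873 without both libraries numbered 1. For C1qb with C3 these values were 0.015, 0.663 and 0.975. Among the 6 libraries left, a choice made after seeing the data, C1qb tended to be higher where class II and C3 were. The order was not strict. IGF1 replicate 3, second only to DsRed replicate 4 in Cd74 and C3, had 28.0 CPM of C1qb. This was below DsRed replicates 2 and 3, at 29.2 and 29.6 CPM.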

How the data were processed

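Libraries were made from total RNA with the Illumina TruSeq RNA kit, 1 per rat, as the labels' protocols state. STAR, HTSeq, edgeR and CASAVA 1.8.2 are listed, without roles, in the submitters' processing notes. No genome build, annotation or strand setting is given in the sources used here. The deposited counts are whole numbers per Ensembl gene ID, and the summary rows for reads assigned to no gene were left out. Reads in the row for no feature made up 30.7% to 32.9% per library of that row and the gene counts together. Other summary rows did not enter this share. The deposited normalised signal is linear although named for log2, and served 1 alternative only, as log2(value + 1). Columns were matched to samples by rat identifier. Between libraries, the 28 pairs differed by at least 5.74 chi-square units per degree of freedom, so none was deposited more than once. The labels name separate rats.

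In R 4.3.3, edgeR 4.0.16 filterByExpr (minimum count 10, minimum total 15) kept 14522 IDs, scaled by TMM. Groups were compared with glmQLFit and glmQLFTest, two-sided, with Benjamini-Hochberg adjustment over all kept IDs and a threshold of 0.05. Standard errors are the log2 fold change over the square root of F, and 95% intervals use the total degrees of freedom. Log2 CPM used a prior count of 2. The procedure was tested on simulated data. Alternatives used DESeq2 1.42.0, limma 3.58.1, other scalings, filters and libraries left out. The members, lists and tests were chosen with earlier results of these data known. All 10 members were named by rule; pathway and cell type lists fixed by symbol could not be tied to IDs and were not analysed here.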

Additional observations from a re-analysis of the deposited data

Results flagged for a closer look

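The level of each of the 10 genes was searched for a library far from the other 3 of its group, 20 sets of 4 libraries in all. In 1 of them, C1qa in the DsRed group, DsRed replicate 4 at 109.6 CPM stood apart from the others, at 74.2 to 77.1 CPM, with a gap that took up 0.918 of the range. A set was flagged when the gap took up more than 0.829 of the range, which about 1 in 20 sets would pass by chance. The sets share libraries, so they are not separate searches.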

How the results depend on the processing

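Under the 21 alternatives 0 of the 10 genes passed an adjusted p of 0.05. Over all IDs the count was 0 except with DESeq2 (13), edgeR's likelihood ratio test (11) and on leaving out 1 library (0 to 1, the 1 without DsRed replicate 2). The replicate block gave 0 calls. Same-numbered libraries had deviations correlated at 0.055, 0.126, 0.244 and 0.134. These values are low, yet each was the highest of that IGF1 library's correlations with the DsRed libraries. The margin was small for replicates 1 and 4, where the next highest were 0.042 and 0.122. The labels state no pairing, so the main test did not pair the rats. Whether the numbers pair them was not tested. C1qb was lower in IGF1 under all 21, at -0.44 to -0.20. Log2 fold changes of the other 9 changed sign under some. Leaving out 1 library gave -0.15 to 0.13 for Aif1, -0.25 to 0.19 for Itgam, -0.078 to 0.17 for Tyrobp, -0.24 to 0.016 for C1qa, -0.61 to 0.13 for C3, -0.81 to 0.17 for Cd74, -0.77 to 0.26 for RT1-Da, -0.75 to 0.20 for RT1-Ba and -0.081 to 0.13 for B2m. Itgam was at 0.00079 in the likelihood ratio test, 0.074 in limma voom, 0.11 on the deposited signal and 0.075 with the replicate block, and Aif1 at -0.0015 with total counts only. Without both libraries numbered 1, an alternative chosen after seeing the data, Aif1 was at -0.18, Tyrobp at -0.049 and B2m at -0.075. All 10 were then lower, and 2 had an unadjusted p under 0.05 (C1qb 0.0149 and C1qa 0.0378, edgeR adjusted p 0.759 and 0.767). The range of Cd74 over libraries was 8.45-fold to 8.85-fold under other scalings. With filter and scaling redone on the libraries left, it was 5.04-fold to 8.50-fold without 1 library. Without both libraries numbered 1, also chosen after seeing the data, it was then 4.05-fold. Fewer libraries narrow a range by construction, and the cause of the other changes was not tested. The lowest member count, 101 reads of Itgam in DsRed replicate 1, sets the poorest counting precision.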

Other observations

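Other IDs followed the members across the 8 libraries. Of 12730 IDs whose mean log2 CPM reached 1, 26 had a Pearson r over 0.95 with the mean of Cd74, RT1-Da and RT1-Ba. The closest was ENSRNOG00000033215, at r = 0.985 and 5.96 to 41.9 CPM, followed by ENSRNOG00000024703, at 0.985 and 14.3 to 25.0 CPM. For the mean of Aif1, Itgam, Tyrobp, C1qa and C1qb the count over 0.95 was 14, with ENSRNOG00000020699 closest, at 0.985 and 3.73 to 7.29 CPM. For C3 it was 35 and for B2m 28. The deposited tables do not pair these IDs with symbols, and with 8 libraries, of which 1 or a pair stand apart, such correlations describe these libraries only.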
